A study of Mus musculus with 7 samples.

Results

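The CC chemokines are small secreted proteins that bind G protein-coupled receptors on leukocytes and draw those cells along a gradient. Described here are 10 of them, Ccl2, Ccl3, Ccl4, Ccl6, Ccl7, Ccl8, Ccl11, Ccl20, Ccl21a and Ccl28, chosen by symbol among the 27933 gene symbols of a single-cell count table of the mouse mammary gland, with rows of a repeated symbol summed. Cells came from nulliparous females on a background mixed from FVB, 129 and C57BL/6J, 3 young (3 to 4 months) and 4 aged (13 to 14 months), all untreated and in diestrus. The fourth pair of glands was taken without the lymph nodes, digested to single cells and loaded on a 10x Genomics 3′ platform with no sorting, and each letter of a sample name (Young A to C, Aged A to D) names 1 animal. The table held 13684 cells in 13 cell types named by the authors, with 1264 to 2865 cells and 6652599 to 16999625 unique molecular identifiers (UMIs, each standing for 1 captured transcript) per mouse. Of 13583 barcodes 101 (0.744%) stood in more than 1 library.

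Inflammatory members of the family such as Ccl2 and Ccl7 attract monocytes through the receptor Ccr2. Ccl3, a ligand of Ccr1, and Ccl4 attract monocytes and T cells, and Ccl11 (eotaxin) attracts eosinophils through Ccr3. Homeostatic members steer cells to set places: Ccl21a guides dendritic cells and T cells that carry Ccr7 into lymphatic vessels, Ccl28 attracts antibody-secreting cells to mucosal surfaces and the lactating mammary gland through Ccr10, and Ccl20 attracts Ccr6-bearing cells to epithelia. In the mammary gland such signals are known for placing macrophages along the ducts.

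Of these genes, 7 lay on chromosome 11 (mm10 build, GENCODE annotation) within a cluster that spanned 1629113 bases. Ccl2 (chr11:82035571-82037453), Ccl7 (chr11:82045712-82047525), Ccl11 (chr11:82057823-82062955) and Ccl8 (chr11:82115185-82116799) followed each other on the plus strand, 8258 bases apart for Ccl2 and Ccl7. Ccl6 (chr11:83587882-83593087, minus strand), Ccl3 (chr11:83647844-83649355, minus strand) and Ccl4 (chr11:83662584-83664683, plus strand) formed the other end, with 13228 bases between Ccl3 and Ccl4. Ccl20 (chr1:83116766-83119167), Ccl28 (chr13:119623819-119654359) and Ccl21a (chr4:42772860-42773993, minus strand) lay alone on other chromosomes.

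RefSeq promoter sequences (GRCm38.p6, the assembly behind mm10) were at hand for 6 of the 10 genes. The 250 bases before each start were searched on both strands for the NF-kB consensus, the site of a factor that switches on many inflammatory genes, and for the letters TATAA, the core of a TATA box. The NF-kB consensus stood in 1 of the 6 windows, that of Ccl20, and in 7.25% of 32851 promoters, whereas TATAA stood in 3 of the 6 and in 22.8% of all. The 100 bases before the RefSeq start of the 3 genes with a match are shown 5′ to 3′ on the gene's strand, because these genes marked 3 different sources in the gland, with the matches in capitals (chr1:83116666-83116765 plus, chr11:83649379-83649478 minus and chr11:82115085-82115184 plus).
Ccl20: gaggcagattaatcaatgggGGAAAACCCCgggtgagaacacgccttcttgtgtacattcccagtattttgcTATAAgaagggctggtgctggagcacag
Ccl3: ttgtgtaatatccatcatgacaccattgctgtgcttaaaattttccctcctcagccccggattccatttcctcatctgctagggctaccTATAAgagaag
Ccl8: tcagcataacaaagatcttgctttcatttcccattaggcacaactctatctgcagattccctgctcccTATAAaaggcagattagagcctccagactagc
In Ccl20 the NF-kB match began 80 bases and TATAA 28 bases before the start. In Ccl8 TATAA began 32 bases before it, and in Ccl3 11 bases before the RefSeq start, which is 34 bases before the start in GENCODE. These are matches of letters and not measured binding.

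The abundance of the 10 genes spanned 3 orders of magnitude. Ccl2 led with 34219 UMIs in 2195 cells, followed by Ccl7 (22258), Ccl4 (14457), Ccl11 (6731), Ccl21a (5078), Ccl3 (4308), Ccl6 (2718) and Ccl8 (1738), whereas Ccl20 had 379 UMIs in 77 cells and Ccl28 30 UMIs in 28 cells. Levels below are CPM, the UMIs of the gene per 1000000 UMIs of that cell type in that mouse, for mice with at least 3 cells of the type, and since 1 UMI is 1 molecule they do not scale with gene length. The mouse was the replicate, errors are SDs over mice, and levels are compared between cell types as a description without a test. Each gene had 1 main source or a pair of them: fibroblasts and macrophages for Ccl2, Ccl7 and Ccl8, fibroblasts and pericytes for Ccl11, macrophages and dendritic cells for Ccl3, Ccl4 and Ccl6, alveolar cells for Ccl20 and lymphatic endothelial cells for Ccl21a. By their markers, fibroblasts carried 18875 CPM (young) and 17110 CPM (aged) of 6 fibroblast markers, Ma cells 2519 CPM of the Ma markers against 9.22 CPM in young Mb cells, and Mb cells 1137 CPM (young) and 1793 CPM (aged) of the Mb markers against 4.54 CPM in Ma cells. Other labels were less clear: young dendritic cells held 3561 CPM of macrophage and 1057 CPM of dendritic markers, aged lymphatic endothelial cells 913 CPM of vascular and 628 CPM of lymphatic markers, and aged pericytes 4385 CPM of myoepithelial markers (which include Acta2) and 1154 CPM of pericyte markers.

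Ccl2 and Ccl7, ligands of Ccr2 that draw monocytes out of the blood, were highest in fibroblasts and in the macrophages that the authors named Ma (Mrc1, Cd209f and Cd163). In fibroblasts, Ccl2 stood at 1059, 2393 and 3776 CPM in Young A, B and C and at 7473, 2134, 4558 and 1627 CPM in Aged A, B, C and D. Its mean was 3289 ± 2207 CPM (n = 7), which overlapped the 2239 ± 823 CPM of Ma cells (n = 3) but not the 373 ± 273 CPM of pericytes, next in order. Ccl7 reversed this order, with 3280 ± 1060 CPM in Ma cells (n = 3) and 1486 ± 1008 CPM in fibroblasts (n = 7), although the ranges overlapped. Fibroblast Ccl7 was 789, 1888 and 2631 CPM in the young and 2910, 1041, 912 and 229 CPM in the aged mice. The aged mice thus held both the highest fibroblast value of each gene (Aged A) and, for Ccl7, the lowest (Aged D), and the groups overlapped. Ma cells could not be compared by age, because 121 came from young mice and 1 from an aged mouse.

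Ccl8 was high in Ma cells, lower in fibroblasts and near 0 elsewhere. In Ma cells of Young A, B and C it stood at 744, 1800 and 855 CPM (mean 1133 ± 580), against 91.6 ± 47.4 CPM in fibroblasts (n = 7) and 2.42 CPM in Mb macrophages, with no overlap between neighbours in this order. Fibroblast Ccl8 was 66.2, 124 and 148 CPM in the young and 147, 34.5, 76.0 and 45.7 CPM in the aged mice, and the groups overlapped.

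Ccl11, the eosinophil attractant, was highest in fibroblasts and pericytes, the contractile cells that wrap small vessels. It averaged 571 ± 225 CPM in fibroblasts and 384 ± 171 CPM in pericytes (both n = 7), with overlapping ranges. In fibroblasts it was 506, 412 and 594 CPM in young and 691, 995, 494 and 302 CPM in aged mice, and in pericytes 579, 657 and 348 CPM in young and 177, 307, 339 and 283 CPM in aged mice. Every aged pericyte value lay below every young one, and the fibroblast values overlapped.

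Within fibroblasts these genes were unevenly spread. At least 1 UMI of Ccl2 was found in 54.7% of the cells, of Ccl7 in 50.9%, of Ccl11 in 65.0% and of Ccl8 in 24.5%, and the first 3 shares were 49.5%, 43.2% and 49.6% once each cell was thinned to 2000 UMIs. For comparison, Ccl2 was found in 3.20% of alveolar cells, or 1.04% after thinning. The 10% of fibroblasts with the most UMIs of a gene held 58.0% of its UMIs for Ccl2, 63.7% for Ccl7 and 46.7% for Ccl11. Ccl2 and Ccl7 met in the same cell more often than the product of their shares (38.2% against 27.9%, and 31.6% against 21.4% after thinning), whereas Ccl2 and Ccl11 met at about the product (35.7% against 35.6%), as did Ccl7 and Ccl11 (33.0% against 33.1%). Ccl2 and Ccl7 are neighbours in the cluster, as are Ccl7 and Ccl11, so of these adjacent pairs 1 met above the product and the other did not.

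Genes that NF-kB switches on (Nfkbia, Tnfaip3, Icam1 and 5 others) were summed in the same thinned cells. Fibroblasts with a Ccl2 UMI held 3227 CPM of this list against 2027 CPM in those without, higher in 7 of 7 mice, and for Ccl7 the values were 3196 and 2364 CPM, again higher in 7 of 7 mice. For Ccl11 they were 2748 and 2487 CPM, higher in 5 of 7 mice. Immediate early genes such as Fos and Jun, which respond to dissociation, stood at 23348 CPM in fibroblasts with Ccl7 and 32621 CPM in those without, and were higher with Ccl7 in 0 of 7 mice. In pericytes the NF-kB list was 4797 CPM with a Ccl11 UMI and 3268 CPM without, higher in 6 of 7 mice. These are descriptions of cells split by a measured gene, with no test.

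Myoepithelial cells, the contractile outer layer of the ducts, held a smaller level of Ccl2, 163, 216 and 107 CPM in young and 216, 395, 152 and 252 CPM in aged mice. A UMI of Ccl2 was found in 25.1% of these cells (16.9% thinned) and of Ccl7 in 12.9%, both genes together in 6.83% against a product of 3.24%. Myoepithelial cells made up 4.46% of the cells of young and 17.8% of those of aged mice, and fibroblasts 25.5 ± 10.8% and 2.76 ± 3.06%. Alongside, fibroblasts gave 82.7 ± 8.49% of all Ccl2 UMIs in young mice and 48.6 ± 33.2% in aged mice, and myoepithelial cells 2.18% and 37.0%. The aged mice differed widely, with 5.02%, 71.1%, 15.4% and 56.3% of Ccl2 UMIs from myoepithelial cells in Aged A, B, C and D. For Ccl7 the myoepithelial share in aged mice averaged 41.1% and ranged from 3.92% to 66.4%.

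**Figure D1:**
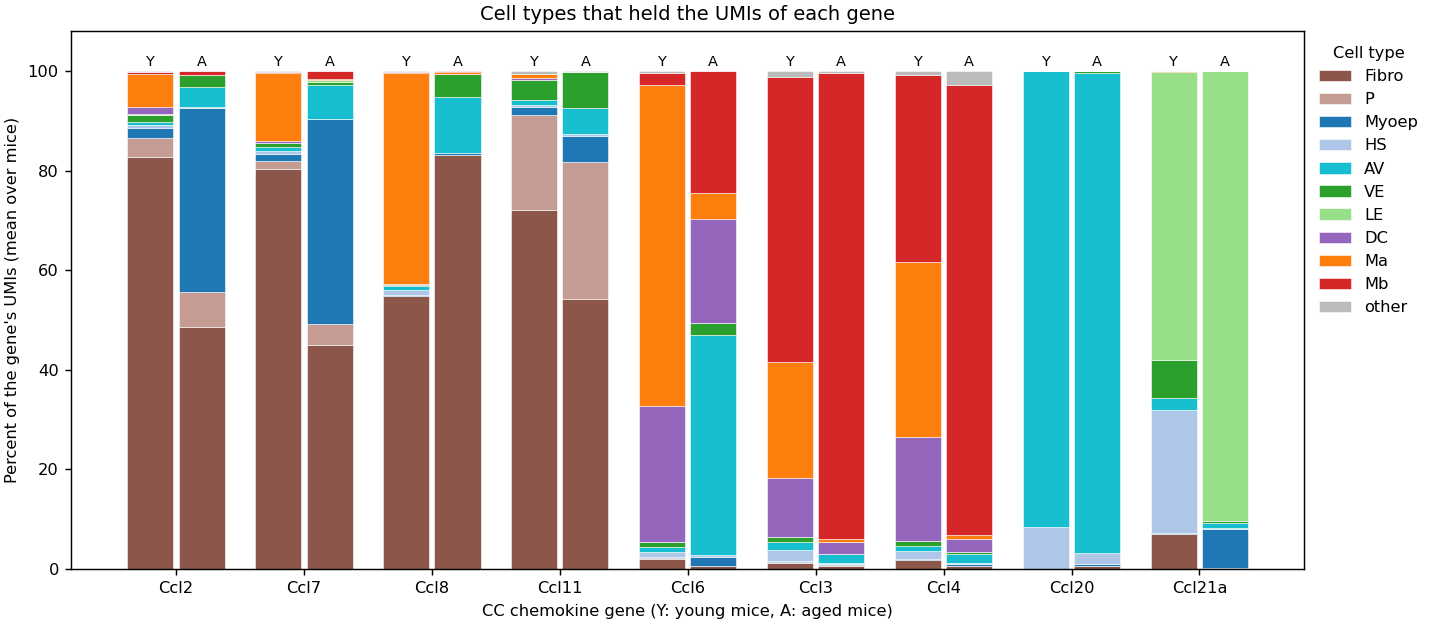
Share of each chemokine's UMIs (percent, y axis) that came from each cell type, as the mean over young (Y) and aged (A) mice; the young bar of Ccl20 is 1 mouse, and Ccl28 is not shown. The fibroblast part of Ccl2 is 82.7% in young and 48.6% in aged mice, and Mb macrophages fill 93.6% of the aged Ccl3 bar.

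Ccl6, a chemokine found in mice and made by resting myeloid cells, ordered the myeloid types without overlap between the first 3 and the next in order. Ma cells stood at 3158, 2750 and 2479 CPM in the 3 young mice (mean 2796 ± 342), dendritic cells at 521 ± 317 CPM (n = 5), Mb macrophages at 81.8 ± 20.8 CPM and the T and B cells at 4.52 CPM. A Ccl6 UMI was found in 95.9% of Ma cells and 60.6% of dendritic cells. Dendritic cells with Ccl6 held 5727 CPM of 8 macrophage markers (Lyz2, Csf1r, C1qa and others) and those without 1110 CPM, higher with Ccl6 in 4 of 4 mice. The dendritic cell markers went the other way, at 807 CPM with and 1244 CPM without Ccl6, so Ccl6 marked the macrophage-marker-rich part of the cells labelled dendritic.

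Ccl3 and Ccl4 (MIP-1 alpha and beta), early products of activated macrophages, were highest in the second macrophage type, Mb (Mmp12, Mmp13 and Spic). In Mb cells Ccl3 stood at 605, 6202 and 2934 CPM in Young A, B and C and at 4860, 29784, 9409 and 32714 CPM in Aged A, B, C and D. Ccl4 stood at 1719, 13499 and 9073 CPM in the young and at 16690, 75495, 29816 and 72316 CPM in the aged mice. Every aged Ccl4 value lay above every young one, while for Ccl3 Aged A lay below Young B. Dendritic cells (Ccl3 470 ± 393, Ccl4 2216 ± 1348 CPM) and Ma cells (Ccl3 1104 ± 1148, Ccl4 6364 ± 5403 CPM) were lower on average, with ranges that overlapped. The Ma means are from the 3 young mice alone. In those mice Mb cells averaged 3247 ± 2812 CPM of Ccl3 and 8097 ± 5950 CPM of Ccl4.

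Cell by cell, Young A stood apart from the other mice. It had a Ccl3 UMI in 36 of 90 Mb cells (median 0 UMIs), against 14 of 16 in Young B and 17 of 18 in Young C (median 7 in both), and median Ccl4 counts of 1, 23 and 30.5 UMIs in Young A, B and C. The 4 aged mice had Ccl3 medians of 33, 144, 43 and 232 and Ccl4 medians of 99, 373.5, 192.5 and 604 UMIs, above those of each young mouse. Pooled over mice, a Ccl3 UMI was found in 67 of 124 young and 22 of 22 aged Mb cells, with medians of 1 and 83 UMIs per cell. A Ccl4 UMI was found in 81 of 124 young and 22 of 22 aged cells, with medians of 1 and 266 UMIs, at median depths of 5112 and 6490 UMIs. Of the young Mb cells 90 came from Young A, the lowest mouse for both genes, and the aged mice gave only 9, 6, 4 and 3 cells. The proportion of the 2 genes in Mb cells was alike at both ages, 2.61 UMIs of Ccl4 per UMI of Ccl3 in young and 2.63 in aged cells, against 6.57 in Ma and 6.58 in dendritic cells. They met in 56.2% of Mb cells against a product of 43.0%. In aged mice Mb cells gave 93.6% of all Ccl3 UMIs (88.8% to 98.3%) and 90.3% of all Ccl4 UMIs (85.2% to 97.4%). In young mice, where Ma cells were present, Mb cells gave 57.2% and 37.5%, and Ma cells 23.3% and 35.2%.

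**Figure D2:**
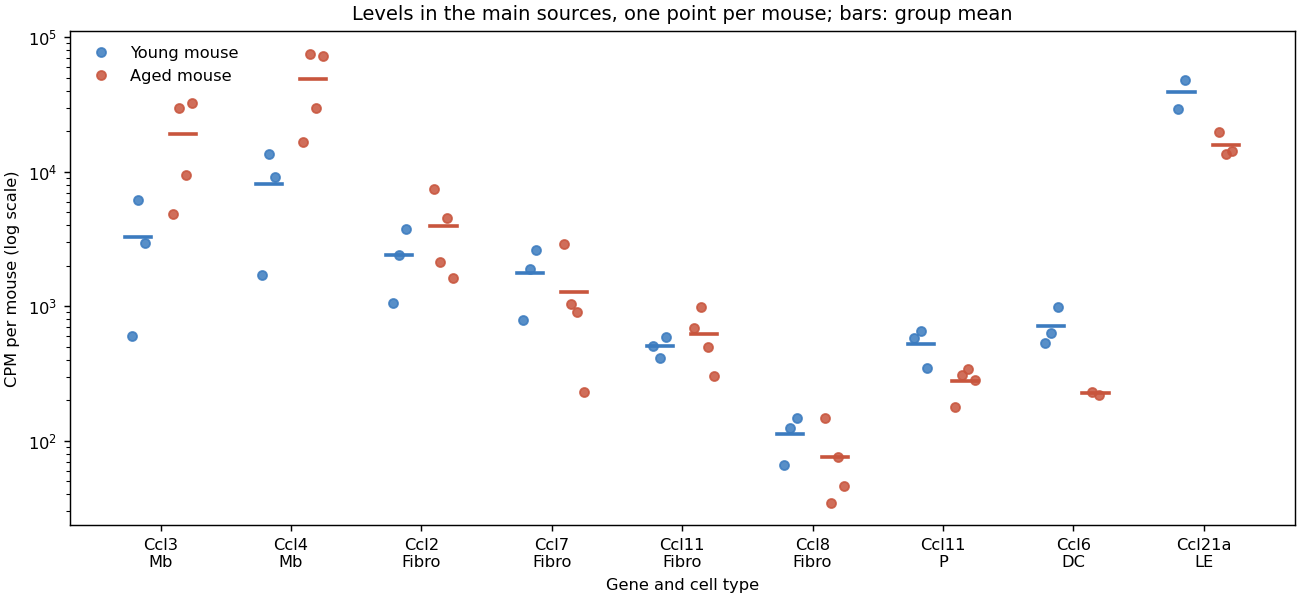
Level of 9 gene and cell type pairs in each mouse (points, CPM on a log axis) for young and aged mice, with bars at the group means. All 4 aged values of Ccl4 in Mb macrophages (16690 to 75495 CPM) lie above the 3 young ones, whereas fibroblast Ccl2 overlaps between ages.

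In the luminal epithelium the levels were low. Ccl20, made by epithelia under inflammatory stimulation, was concentrated in few alveolar cells, the luminal cells that produce milk (the authors' AV type). AV cells of Young A and B had 0 UMIs, which allows up to 1.73 and 5.40 CPM (3 counts), and the 4.55 CPM of Young C came from 1 cell with 11 UMIs. Aged A, B, C and D stood at 23.4, 6.68, 16.1 and 4.03 CPM. A Ccl20 UMI was found in 1 of 794 young AV cells (0.126%) and 62 of 4026 aged ones (1.54%, Wilson 95% interval 1.20% to 1.97%, counting error only), or 1.02% of aged cells after thinning. Cells with 5 or more Ccl20 UMIs numbered 19, all of them AV cells, 18 of them aged, and up to 34 UMIs stood in 1 cell. Ccl20 UMIs were thus spread over few cells, some of which held many. In AV cells with Ccl20 the NF-kB list stood at 5581 CPM and in those without at 3687 CPM, higher in 4 of 4 mice. Ccl28 was at the limit of detection, with 24 of its 30 UMIs in AV cells and a mean there of 0.755 CPM.

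Ccl21a was highest by far in lymphatic endothelium (the type LE), the cells that line lymph vessels. The authors named this type by Mmrn1, Prox1, Flt4 and Ccl21a itself, so its peak there is partly given by the label. The lymphatic markers summed below are Mmrn1, Prox1, Flt4 and Lyve1. The LE level of Ccl21a was 29490 and 48310 CPM in Young A and C and 19770, 13655 and 14327 CPM in Aged B, C and D. No other type came near: the next in order, myoepithelial cells, averaged 65.0 CPM, of which Aged C, at 440 CPM, came from 1 cell with 286 UMIs. Of the LE cells, 6 of 9 young ones held 56 to 541 UMIs and 5 of 19 aged ones 217 to 826 UMIs, and all others held exactly 0. The lymphatic markers were 3364 CPM in LE cells with Ccl21a and 765 CPM in those without, and Lyve1 was found in 8 of 11 cells with and 0 of 17 cells without it. Counts in the cells that held Ccl21a thus overlapped between ages. By mouse, Ccl21a was found in 3 of 5 and 3 of 3 LE cells of Young A and C, 0 of 1 of Young B, 2 of 2 of Aged A, and 1 each of 5, 7 and 5 of Aged B, C and D. Ccl21b and Ccl21c, near-identical copies, held 2 and 0 UMIs, so how reads were shared among the 3 genes is uncertain.

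The effect of age was tested within each cell type with edgeR's quasi-likelihood test on the summed counts, with Benjamini-Hochberg adjustment over all genes tested in that type. A call needed both an adjusted p under 0.05 and 1.5-fold or more, and changes are log2 of aged over young with the standard error (SE) given as the change over the square root of the F statistic. Among 12 types with enough mice, 36 gene and type pairs in 10 types passed the filter on low counts, covering 9 of the 10 genes. Of all genes tested in these 10 types, 0.820% (NK cells) to 27.6% (myoepithelial cells) were called in either direction. Of the 36 pairs, 7 were called lower in aged mice and 0 higher. At an unadjusted p under 0.05 there were 14 lower and 5 higher, and DESeq2 called 10 lower and 2 higher (Ccl3 and Ccl4 in Mb cells). The 7 calls were all in types that are not the main source of the gene. In 3 of them (HS Ccl7, HS Ccl4 and VE Ccl7) the 3 young but 0 aged mice reached the level that the filter asks for, and in myoepithelial and AV Ccl11 3 young and 1 aged did, so these genes were tested only through the group in which they were higher, and the count is no support for a common direction. Young and aged cells were also named by barcodes of a different form, 2 blocks of bases in the 6372 young cells and 1 in the 7312 aged cells. What this form of the names stands for is not stated. Any difference in handling that went with it could not be told apart from age.

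In the main sources no age call was made. None of the 6 tested genes was called in fibroblasts, where 3.16% of all genes tested were called and 0 of the 6 had an unadjusted p under 0.05 or were called by DESeq2. The fibroblast changes were 0.80 for Ccl2 (SE 0.50, adjusted p = 0.41 by edgeR), -0.35 for Ccl7, 0.42 for Ccl11 and -0.24 for Ccl8. In Mb macrophages, where 1.16% of genes were called, 0 of 4 were called. The log2 change was 2.91 for Ccl3 (SE 0.92, unadjusted p = 0.011, adjusted p = 0.14 by edgeR, n = 3 and 4) and 2.92 for Ccl4 (SE 0.80, unadjusted p = 0.0050, adjusted p = 0.12 by edgeR), and DESeq2 called both (adjusted p = 0.028 and 0.011). The NF-kB list stood at 3798 CPM in young and 7591 CPM in aged Mb cells, and its part in the result was not tested. With at least 10 cells per mouse no aged mouse remained, so the Mb difference rests on the 22 aged cells.

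Pericyte Ccl11 had a log2 change of -0.76 (adjusted p = 0.072 by edgeR), with 0 of 3 genes called against 11.8% of all genes. In the same cells the 6 fibroblast markers summed to 510 CPM in young and 70.8 CPM in aged mice (6 of 6 lower) and the myoepithelial markers to 1150 and 4385 CPM, and their part in the result was not tested. Dendritic Ccl6 stood at 537, 634 and 983 CPM in young mice and 231 and 219 CPM in the 2 aged mice with enough cells. The groups did not overlap, but the change of -1.63 was not called (adjusted p = 0.053 by edgeR), with 0 of 4 genes called against 3.75% of all. The 8 macrophage markers stood at 3561 CPM in young and 1379 CPM in aged dendritic cells, and their part in the result was not tested. In LE cells Ccl21a had a change of -1.36 (adjusted p = 0.11 by edgeR, n = 2 and 3), the only gene of 10 tested there (0 of 1 called against 2.63% of all). Young B (1 LE cell, 0 Ccl21a UMIs) and Aged A (2 LE cells, 1043 Ccl21a UMIs) had too few cells to enter this fit. The 4 lymphatic markers moved alongside, at 3283 CPM in young and 628 CPM in aged LE cells, and their part in the result was not tested. Ccl4 in NK cells had a change of 1.82 (adjusted p = 0.20 by edgeR), also alone (0 of 1 against 0.820%). Pericytes, dendritic, LE and NK cells each had 1 gene at an unadjusted p under 0.05, and DESeq2 called 1 of these, dendritic Ccl6 (-1.60, adjusted p = 0.030). None of the 10 genes passed the filter in the T and B cells or in the HS-AV type, luminal cells with markers of both lineages.

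**Figure D3:**
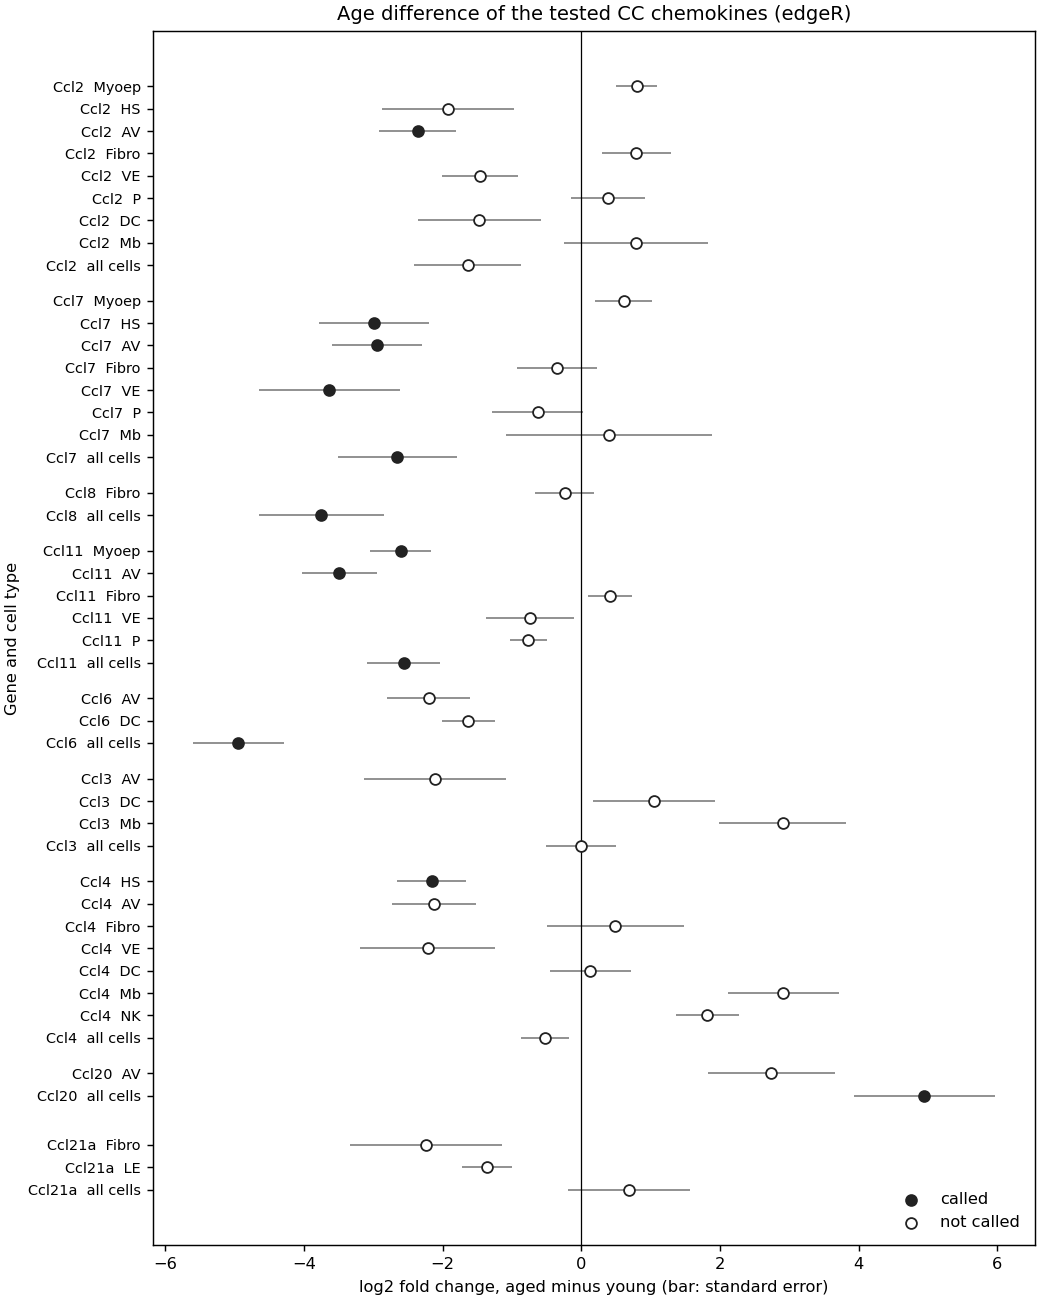
Log2 change of aged over young (x axis, with SE bars) for the gene and cell type pairs tested; filled points are called at an adjusted p under 0.05 and at least 1.5-fold. The 7 filled points within cell types all lie below 0, and Ccl3 and Ccl4 in Mb macrophages lie near 2.9 with open points.

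The calls lay where levels were low. In AV cells 3 of 7 genes were called, against 6.12% of all genes. AV Ccl11 stood at 14.4, 1.80 and 23.1 CPM in young and 0.987, 0.698, 1.77 and 0.967 CPM in aged mice, and changed by -3.49 (SE 0.54, adjusted p = 0.0053 by edgeR). AV Ccl7 stood at 23.7, 7.19 and 54.1 CPM and at 7.07, 0.698, 3.14 and 3.22 CPM (-2.94, SE 0.65, adjusted p = 0.026 by edgeR), and AV Ccl2 at 20.2, 18.0 and 71.5 CPM and at 10.2, 2.79, 9.27 and 3.54 CPM (-2.36, SE 0.56, adjusted p = 0.035 by edgeR). The calls came from these same values, so a lack of overlap between ages adds nothing to them. No aged value of the 3 genes reached the lowest young one, which for Ccl11 (Young B) was 1 UMI. Young C was highest for each, and without it the change was -1.30 for Ccl2 (adjusted p = 0.26), -2.04 for Ccl7 (adjusted p = 0.18) and -2.83 for Ccl11 (adjusted p = 0.063), with none called. AV Ccl20 (2.74, adjusted p = 0.10) and Ccl6 (-2.20, adjusted p = 0.055) were not called by edgeR.

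A list of 6 fibroblast markers (Col1a1, Col1a2, Col3a1, Dcn, Lum and Pdgfra) moved with these values. It summed to 279 CPM in young and 19.6 CPM in aged AV cells, lower in 6 of 6 genes. The 8 macrophage markers summed to 49.7 and 3.05 CPM, lower in 8 of 8 genes. AV cells with a Ccl11 UMI held 3109 CPM of the fibroblast list and those without 64.4 CPM, and for Ccl2 the values were 1030 and 69.0 CPM. Of the 23 AV cells with Ccl11 after thinning, 18 had a fibroblast marker. The part of fibroblast or macrophage transcripts in the AV calls was not tested.

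In hormone-sensing (HS) luminal cells, which carry the receptors for estrogen and progesterone, 2 of 3 genes were called against 6.20% of all, both of which passed the filter through the young mice alone. Ccl7 stood at 5.83, 5.84 and 18.1 CPM in young and 4.06, 0.487, 0 and 0 CPM in aged mice (0 UMIs allow up to 4.08 and 3.55 CPM, change -2.98, SE 0.79, adjusted p = 0.049 by edgeR), and Ccl4 at 10.2, 5.84 and 15.9 CPM and at 3.25, 0.973, 2.72 and 3.55 CPM (-2.15, SE 0.50, adjusted p = 0.031 by edgeR). The values of neither gene overlapped between ages, but this adds nothing to the calls. All 3 young and 0 aged mice reached the filter level of 5.31 CPM, which already sets the groups apart. Of the 6 fibroblast markers 5 were lower in aged HS cells, the exception being Dcn at 69.7 CPM in young and 905 CPM in aged mice. The 8 macrophage markers summed to 29.3 CPM in young and 4.06 CPM in aged HS cells, lower in 8 of 8 genes. HS cells with Ccl4 held 241 CPM of them and those without 22.7 CPM, and the part of macrophage transcripts in the result was not tested. Without the cells that held a UMI of Ptprc, Tyrobp, Fcer1g, Lyz2 or Csf1r, HS Ccl4 was not called (-1.53, adjusted p = 0.077 by edgeR) and HS Ccl7 did not pass the filter.

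In myoepithelial cells 1 of 3 genes was called, against 27.6% of all. Ccl11 stood at 51.0, 54.1 and 48.7 CPM in young and 9.19, 13.1, 4.62 and 1.14 CPM in aged mice, with a change of -2.61 (SE 0.44, adjusted p = 0.00044 by edgeR), and the call held when any 1 mouse was left out. It did not pass the filter once cells with an immune marker UMI were left out. The fibroblast list was 645 CPM in young and 137 CPM in aged myoepithelial cells, and 975 CPM in those with Ccl11 against 222 CPM in those without. Its part in the result was not tested. Ccl2 did not follow (0.80, adjusted p = 0.053 by edgeR), nor did Ccl7 (0.61, adjusted p = 0.29). Ccl2 per Ccl11 UMI in myoepithelial cells was 3.13 in young and 36.3 in aged mice and in fibroblasts 5.08 and 8.12.

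In vascular endothelial (VE) cells, which line blood vessels, 1 of 4 genes was called against 26.5% of all. Ccl7 stood at 9.72, 9.25 and 100.3 CPM in young and 5.30, 0.698, 1.78 and 1.27 CPM in aged mice (-3.63, SE 1.02, adjusted p = 0.016 by edgeR). Young C stood far above the rest, and without it the change was -1.83 (adjusted p = 0.031). The fibroblast list was 223 CPM in young and 31.8 CPM in aged VE cells, and VE cells with Ccl7 held 677 CPM of it against 105 CPM in those without. Its part in the result was not tested. Ccl2 stood at 34.5, 26.1 and 137 CPM in young and 15.9, 10.5, 32.1 and 11.4 CPM in aged VE cells and was not called (-1.46, adjusted p = 0.062 by edgeR).

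**Figure D4:**
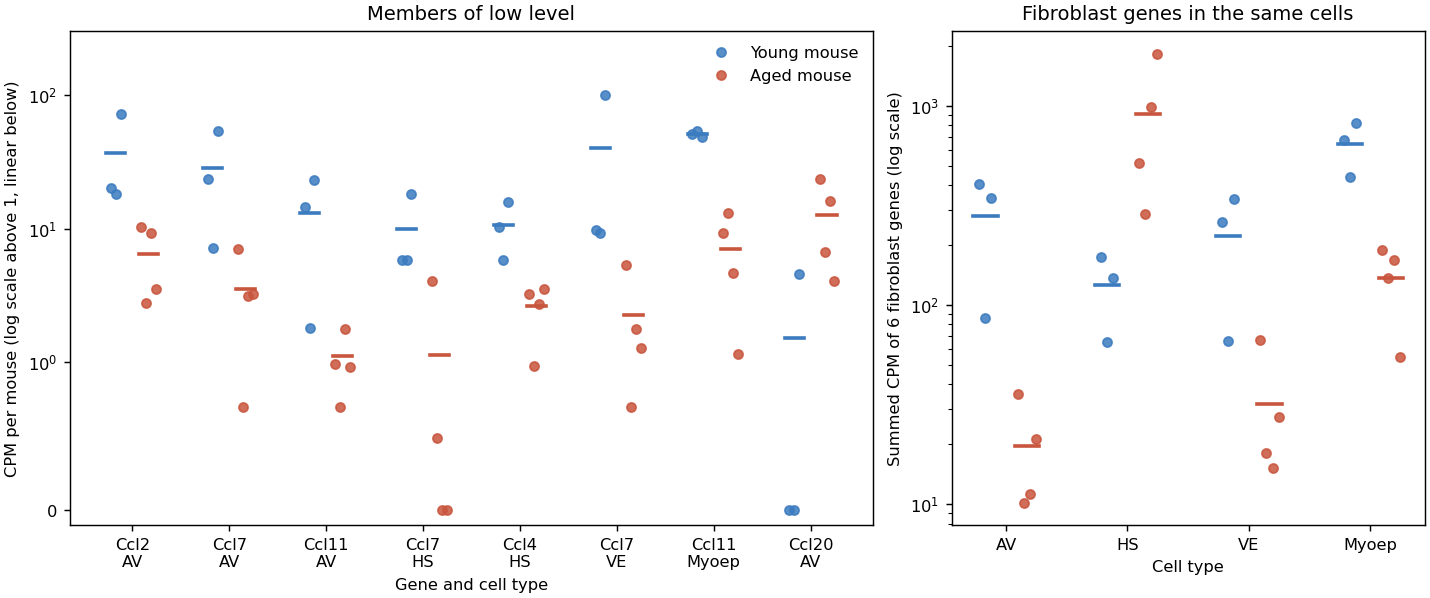
Left, level of 8 low-level gene and cell type pairs in each mouse (CPM, symmetric log axis), young and aged; right, summed CPM (log axis) of 6 fibroblast markers in AV, HS, VE and myoepithelial cells of the same mice. AV Ccl11, called from these same values, does not overlap between ages. The fibroblast markers of the AV cells average 279 CPM in young and 19.6 CPM in aged mice. Those of HS cells average 126 and 909 CPM, a rise of Dcn alone, with 5 of the 6 markers lower in aged mice.

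Of the 7 calls, myoepithelial Ccl11 was made whichever mouse was left out. Leaving out 1 mouse kept 4 of the 7 without Young A, 5 without Young B, 2 without Young C, 5 without Aged A, 3 without Aged B, 2 without Aged C and 1 without Aged D. Of the calls not kept, 1 to 3 in each of these fits were not tested, because the gene no longer passed the filter. After thinning each cell to 2000 UMIs, AV Ccl2 and AV Ccl7 were called again and the other 5 no longer passed the filter on low counts.

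Whether the age effect differed between types was tested as an interaction in edgeR with the mouse as a block. Between fibroblasts and VE cells, 2 of 6 genes were called (5.69% of all genes were): the aged over young change was larger in fibroblasts by 2.06 for Ccl2 (SE 0.40, adjusted p = 0.0035) and by 2.78 for Ccl7 (SE 0.67, adjusted p = 0.015), the latter not called without Aged A, B or C. Between myoepithelial and AV cells 3 of 6 were called (9.27% of all), with larger changes in myoepithelial cells by 3.13 for Ccl2 (SE 0.69, adjusted p = 0.0087), 3.68 for Ccl7 (SE 0.86, adjusted p = 0.012) and 8.74 for Ccl21a (SE 2.04, adjusted p = 0.013), the last resting on the 1 myoepithelial cell of Aged C named above and on 1 AV cell of Young A, which held 78 of the 83 Ccl21a UMIs of young AV cells. Without Young A the Ccl21a difference was 3.55 (adjusted p = 0.71), and by DESeq2 2.33 (adjusted p = 0.67). Between myoepithelial and HS cells 1 of 4 was called (9.53% of all), Ccl7 by 3.62 (SE 1.00, adjusted p = 0.026). Without Young C the Ccl7 differences from HS and AV cells and the Ccl2 difference from AV cells were not called, nor was Ccl7 from HS cells without Aged B. No gene was called between fibroblasts and pericytes (0 of 4, 0.928% of all), VE cells and pericytes (0 of 4, 9.62% of all) or HS and AV cells (0 of 4, 2.39% of all), where 1, 3 and 0 had an unadjusted p under 0.05 and DESeq2 called 0. Without the mouse block 3 of the 6 calls were made, and DESeq2 made 1, fibroblast against VE Ccl2.

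Summed over all cells of a mouse, 5 of 9 genes were called, against 32.7% of all genes. In such sums fewer cells of a type and less RNA per cell cannot be told apart. Ccl6 stood at 76.1, 50.4 and 82.9 CPM in young and 4.94, 1.00, 1.37 and 0.186 CPM in aged mice (-4.94, SE 0.65, adjusted p = 0.0016 by edgeR). Ccl8 stood at 27.7, 40.9 and 61.2 CPM and at 9.20, 0.412, 0.686 and 0.652 CPM (-3.75, SE 0.90, adjusted p = 0.013 by edgeR). In young mice Ma cells gave 64.6% of the Ccl6 UMIs, and fibroblasts gave 54.7% and Ma cells 42.5% of the Ccl8 UMIs. The young mice gave 121 Ma cells and 1799 fibroblasts, the aged mice 1 and 194.

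Ccl11 fell by 2.56 (SE 0.53, adjusted p = 0.0071 by edgeR), from 156, 101 and 192 CPM to 46.0, 16.3, 13.0 and 7.64 CPM. Ccl7 fell by 2.65 (SE 0.85, adjusted p = 0.039 by edgeR), from 233, 322 and 871 CPM to 178, 37.3, 14.4 and 23.2 CPM, and was called in only 2 of the 7 fits without 1 mouse (those without Young A or Aged A). Ccl2 stood at 301, 398 and 1220 CPM and at 454, 94.9, 62.8 and 73.0 CPM and was not called (-1.64, adjusted p = 0.12). Only Ccl20 was called higher, at 0, 0 and 0.725 CPM in young and 14.7, 3.94, 12.0 and 2.42 CPM in aged mice (4.94, SE 1.01, adjusted p = 0.0071 by edgeR). No young mouse reached the level that the filter asks for, whereas every aged mouse did. Ccl20 was thus tested only through the group in which it was higher. Without Young C it was still called, with no young UMI left. AV cells, its source, were 11.7% of the cells of young and 55.9% of those of aged mice.

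Ccl3 (41.8, 119 and 32.9 CPM against 40.5, 57.5, 24.8 and 75.7 CPM) and Ccl4 (154, 399 and 196 CPM against 145, 147, 85.8 and 169 CPM) overlapped between ages, with changes of -0.01 and -0.52 that were not called by edgeR (adjusted p = 0.99 and 0.26). The Ccl3 of the aged glands came almost wholly from the 22 Mb cells described above. Ccl21a ranged from 2.71 to 90.1 CPM in young and 23.6 to 105 CPM in aged mice (0.69, adjusted p = 0.56).

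The family list held 14 other ligands, 11 receptors and 5 atypical receptors, which bind chemokines without classical signalling. Receptors of the 10 genes were sparse and myeloid. Ccr1 had 267 UMIs (146 in Mb, 51 in dendritic and 50 in Ma cells), Ccr2 194 UMIs (141 in dendritic cells) and Ccr7, the receptor of Ccl21a, 504 UMIs (281 in dendritic and 145 in Mb cells). Ccr3, Ccr6 and Ccr10, the receptors of Ccl11, Ccl20 and Ccl28, had 6, 2 and 15 UMIs, too few to place them in a cell type.

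Among atypical receptors Ackr1, which binds many of these ligands on venular endothelium, was called higher in aged VE cells, with 376, 278 and 305 CPM in young and 2513, 1824, 1488 and 2086 CPM in aged mice (2.99, SE 0.20, adjusted p = 8.0e-07 by edgeR). Ccrl2 was called higher in fibroblasts (1.88, adjusted p = 0.0075 by edgeR), myoepithelial cells (1.89, adjusted p = 0.032) and AV cells (1.61, adjusted p = 0.025). In Mb cells Ccrl2 stood at 458, 1095 and 1036 CPM in young and 1205, 5910, 2323 and 6149 CPM in aged mice and was not called (2.52, adjusted p = 0.11). Of the other ligands, Ccl5 was called higher in Mb cells (3.76, adjusted p = 0.041 by edgeR), and none of the receptors that passed the filter in a type (2 in dendritic and 1 in Mb cells) was called. Summed over all cells, 1 of 9 other ligands was called higher and 3 lower, the receptors Ccr1 and Ccr2 were called lower, and of 5 atypical receptors 2 were called higher and 3 lower.

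Genes with the profile most like each chemokine were sought over the 58 sums of at least 10 cells per mouse and type, by Pearson's r of log2(CPM + 1), among 11090 genes. The sums share libraries and mice, so r is a description. Nearest to Ccl2 was Lrp1 (r = 0.84), to Ccl7 the collagen gene Col6a1 (0.81), to Ccl8 the scavenger receptor gene Colec12 (0.83) and to Ccl11 Pdgfrb (0.91), a receptor of fibroblasts and pericytes. Nearest to Ccl6 was Lyz2 (0.95), to Ccl3 Lilrb4a (0.92), to Ccl4 Plek (0.92) and to Ccl20 Cel (0.77). Among the members Ccl3 and Ccl4 had r = 0.92 and Ccl2 and Ccl7 r = 0.88. No LE sum reached 10 cells, so Ccl21a had no near profile (0.48 at most), nor did Ccl28 (0.51).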

How the data were processed

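Droplet-based single-cell RNA sequencing measured the mammary cells of 3 young and 4 aged mice. The authors aligned reads to mm10 and counted UMIs with Cell Ranger 2.0, removed low-quality cells and clustered and named the cells, and deposited the raw counts per gene and cell (27998 rows) with the cell names and types. No value had been scaled. The 10 genes and all lists were chosen with earlier results of these data known.

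UMI counts were added up for each mouse within each cell type (at least 3 cells) and divided by the total of that sum to give CPM. Age was tested with edgeR 4.0.16 (TMM, filterByExpr, quasi-likelihood test, Benjamini-Hochberg over all genes), in types with at least 2 mice per age. Shares of cells were recomputed with each cell thinned to 2000 UMIs. No doublet caller was run, and an alternative left out non-immune cells with a UMI of Ptprc, Tyrobp, Fcer1g, Lyz2 or Csf1r. Other alternatives were DESeq2 1.42.0, RLE factors, no filter on low counts, no fold minimum, leaving out ribosomal and mitochondrial genes, thinned counts, at least 10 cells, a replicate block and leaving out each mouse. Median depth was 4758.5 to 7109.5 UMIs per cell, and intervals cover counting error only. All 10 genes are described, with other genes of the family where they were called or are a main receptor, and the gene of the nearest profile. Scripts ran in Python 3.11.15 and were tested on simulated data.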

Additional observations from a re-analysis of the deposited data

Results flagged for a closer look

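Among the 39 groups of 4 aged mice with at least 20 UMIs of a gene, 9 had a mouse whose gap to its neighbour passed Dixon's 95% critical value, which chance gives in about 1 of 20 groups. Aged A was far above the others for Ccl2 (454 CPM in all cells, next 94.9), Ccl7 (178, next 37.3) and Ccl8 (9.20, next 0.686). Aged A also gave 121 of the 194 aged fibroblasts. It was also highest for Ccl28, at 2.63 CPM in AV cells (next 0.399) and 1.55 CPM in all cells (next 0.353), and for Ccl21a in AV cells at 4.28 CPM (next 0.644).

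Aged C stood apart through single cells. Its fibroblast Ccl4 of 177 CPM (next 8.62) was 14 UMIs of 1 of 15 cells, its Ccl4 of 1461 CPM in T and B cells (next 253) was 37 UMIs of 1 of 4 cells, and its myoepithelial Ccl21a of 440 CPM (next 6.43) came from 1 cell of 286 UMIs.

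The age effect differed between cell types by an interaction test in 6 cases. The log2 change of aged over young was larger in fibroblasts than in VE cells by 2.06 for Ccl2 and by 2.78 for Ccl7. In myoepithelial cells Ccl7 was larger by 3.62 than in HS cells, and compared with AV cells Ccl2 was larger by 3.13, Ccl7 by 3.68 and Ccl21a by 8.74. Single cells of Aged C (286 UMIs) and Young A (78 UMIs) carry the Ccl21a difference. The summed fibroblast markers were lower in aged than in young AV, VE and myoepithelial cells (279 and 19.6, 223 and 31.8, 645 and 137 CPM in young and aged mice). In HS cells the sum was higher in aged mice (126 and 909 CPM) through Dcn alone, as 5 of the 6 markers were lower. The part of these markers in the differences was not tested.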

How the results depend on the processing

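Within cell types, 0 genes were called higher, against 2 by DESeq2, 6 without a filter on low counts, 1 after thinning and 3 with the replicate block (Ccl3 and Ccl4 in Mb cells, Ccl20 in AV cells), and 0 to 1 when 1 mouse was left out. The 7 called lower became 22 without the filter, 3 after thinning, 4 without mixed cells, 7 with the replicate block and 2 to 8 without 1 mouse. Calls over all genes, in either direction, moved as well. In AV cells they were 674 of 11010 in the main fit, 930 of 16641 without the filter and 305 of 8040 after thinning. In HS cells they were 524 of 8456, 1208 of 16137 and 154 of 4309. Over all cells, the 4 called lower became 2 with the replicate block, which lost Ccl7 and Ccl8, and 3 to 5 without 1 mouse, while the 1 called higher (Ccl20) was called in each. In the main fit Ccl20 passed the filter through the aged mice alone. The 6 called differences between types became 1 by DESeq2, 12 without the filter, 3 without the mouse block and 3 to 10 without 1 mouse. The replicate block also lost Ccl7 and Ccl4 in HS cells. Same-letter mice correlated at -0.195 to 0.081 in their deviations from the group means, so no pairing by letter was seen. With so few mice and no values for mice of different letters, this cannot exclude a shared handling. Calls lost under the replicate block are counted among those that fell short. Single-gene results were followed for the called changes and for a list of named pairs, such as Ccl3 and Ccl4 in Mb cells. None of these turned its direction. They stayed on their side of the threshold in 353 cases, passed it in 22 and fell short in 43. Part of the 353 could not have moved, so these counts do not measure stability. Some fits used the same sums as the main fit, such as dendritic cells without Aged C or Aged D. The same holds for at least 10 cells where every mouse had that many, and dropping the fold minimum cannot lose a call. The other tested pairs were not followed in this way. The causes were not tested. Mean levels in the main sources moved by less than 1 SD under each alternative, and no LE value was left with at least 10 cells. For Mb cells this SD spans both ages, so it is a wide limit. With at least 10 cells only the 3 young mice were left there. The Mb mean then went from 12358.5 to 3247 CPM for Ccl3 and from 31230 to 8097 CPM for Ccl4. Depth limits what can be said of Ccl28 (30 UMIs) and of Ccl20 in young mice, and the number of cells what can be said of the 22 aged Mb cells.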
